A study of Saccharomyces cerevisiae with 24 samples.

Results

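The genes described here are those whose mRNA level differed between yeast without ZUO1, called zuo1Δ, and wild type in all 3 growth conditions. Of the 5211 genes in the deposited count table, 5070 were above 0 in both genotypes, and 962 of these met the rule. Left out were 87 genes with no count in any wild-type library and 54 with none in any zuo1Δ library. A gene met the rule when the genotype difference over the 12 mRNA libraries passed edgeR's quasi-likelihood test at a Benjamini-Hochberg adjusted p under 0.05, with condition as a covariate, and when both zuo1Δ libraries lay above both wild-type libraries in every condition, or below them in every condition. These values chose the genes, so the mRNA differences below describe them and no test was built on the choice.

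All libraries came from Saccharomyces cerevisiae of the BY4741 background, a haploid laboratory strain of mating type a, in exponential growth in defined glucose medium. The 6 groups used were zuo1Δ unstressed, zuo1Δ after 0.25 mM hydrogen peroxide (H2O2) for 30 min at 30 °C, zuo1Δ after 45 min at 37 °C, and wild type in the same 3 conditions, with 2 biological replicates in each. Poly(A) mRNA was sequenced from each group, and ribosome footprints, the stretches of mRNA that a translating ribosome shields from nuclease, came from 12 other libraries of the same groups. Per the labels' protocols, unstressed cells were taken from a culture that was then stressed, so libraries of 1 genotype may share a culture, and the p-values measure the spread between libraries. The labels mention growth with or without selective markers, but not for which cells.

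Zuo1 is a J-domain protein that forms the ribosome-associated complex with the Hsp70 relative Ssz1. The complex sits near the exit tunnel of the ribosome and stimulates the Hsp70 chaperones Ssb1 and Ssb2, which bind nascent chains. Yeast without it is known to be sensitive to cold, salt and translation inhibitors, and Ssb and the complex are also linked to ribosome biogenesis.

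ZUO1 was listed at 0 in all 6 zuo1Δ libraries and stood at 284 to 684 CPM in wild type. Values are CPM, counts scaled by library total and by edgeR's TMM factor, and differences are log2 fold changes of zuo1Δ over wild type ± SE. Library totals were 25222774 to 85622718 counts in zuo1Δ and 7810893 to 122213415 in wild type. A share of 19% to 33.0% of all counts fell on the 50 highest genes in zuo1Δ and one of 27.2% to 61.7% in wild type, so levels depend on how libraries are scaled. In bulk samples, fewer cells of a kind and less RNA per cell cannot be told apart. With TMM the median log2 fold change of all genes was 0.01, and with library size alone it was 1.26, which is the shift against which the values at library size alone are to be read. Among a-cell genes the receptor STE2 stood at 550.6 to 846 CPM in zuo1Δ and 467 to 1324 in wild type, and the alpha-cell receptor STE3 at 1.34 to 10.3 CPM in zuo1Δ and 4.13 to 14.6 CPM in wild type. HIS3 did not pass (-0.56 ± 0.26, adjusted p = 0.0886), and the other marker genes of the strain are not analysed here.

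Libraries of both genotypes correlated more with another library than with their own replicate, and every zuo1Δ library did so. Wild-type unstressed replicate 1 did (0.961 with zuo1Δ unstressed replicate 1, against 0.948 with its replicate). So did wild-type heat replicate 2 (0.959 with the same zuo1Δ library, against 0.958). Wild-type heat replicate 1 did as well (0.960 with wild-type unstressed replicate 1, against 0.958). The 3 set out next as libraries that stood apart are all from zuo1Δ, although this measure alone does not single them out. Leaving them out together was decided after the data were seen. The zuo1Δ unstressed replicate 1 correlated more with wild-type unstressed replicate 1 (Spearman 0.961 across genes) than with its own replicate (0.912). The zuo1Δ library labelled heat replicate 1 correlated more with zuo1Δ H2O2 replicate 1 (0.982) than with its own replicate (0.957), and the one labelled H2O2 replicate 2 more with that heat replicate 1 (0.974) than with its own (0.946). Counts are therefore also given without these 3 libraries. That leaves 1 zuo1Δ library in each condition, assumed to vary like the rest, and makes non-overlap easier to meet. Without them 2547 genes met the rule, among them 938 of the 962.

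Between the genotypes, 1112 genes rose in zuo1Δ (21.9% of the 5070 tested) and 1178 fell (23.2%) over the 3 conditions together, a split that became 3556 and 121 by library size alone. Of these, 500 were higher in every condition (9.86%) and 462 lower (9.11%), while non-overlap without the test was met by 515 (10.2%) and 486 (9.59%). The 500 had a median log2 fold change of 1.06 (range 0.44 to 3.1) and the 462 one of -1.35 (range -4.16 to -0.45). Falls were the larger: 105 of the 462 were past 4-fold, against 16 of the 500, and 328 of the 462 were past 2-fold, against 283 of the 500. A mean of at least 10 CPM was reached by 379 of the 500 and by 452 of the 462. With library size alone the split turned to 2307 higher and 41 lower, and 500 of the 500 and 41 of the 462 were still among them. At the edge of the test, VFA1 (-0.99 ± 0.39, adjusted p = 0.049998) and FLO8 (0.50 ± 0.19, adjusted p = 0.0499) lay just inside, with VFA1 turning to 0.34 at library size alone. KRE9 (-0.76 ± 0.30, adjusted p = 0.0501) and EPL1 (-0.63 ± 0.25, adjusted p = 0.0502) lay just outside, turning to 0.56 and 0.66.

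The number of calls in single conditions depended on the fit and on single libraries. A fit of the 6 groups called 14 genes unstressed (0.276%), 14 after H2O2 (0.276%) and 1892 after heat (37.3%). The heat count was 0 without wild-type heat replicate 1 and 0 without zuo1Δ heat replicate 2, and the unstressed count was 515 without zuo1Δ unstressed replicate 1. DESeq2 gave 610, 637 and 2180 in the order unstressed, H2O2 and heat, and the fit with a replicate block gave 472, 633 and 2291. For the 500 higher genes the median difference was 1.03 unstressed, 0.96 after H2O2 and 1.19 after heat, and for the 462 lower genes it was -1.28, -1.19 and -1.52 in the same order. The test of an unequal difference between conditions was passed by 0 of 5070 genes in edgeR (with 637, or 12.6%, at an unadjusted p under 0.05), by 27 in DESeq2 and by 113 with the replicate block.

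Only 4 genes passed in each of the 3 conditions taken alone (0.0789%): IMD2 and PHO12, lower in zuo1Δ, and IGO1 and QCR6, higher. This count ran from 0 to 153 when single libraries were left out and was 153 without zuo1Δ unstressed replicate 1. Coordinates below are those of the R64 annotation.

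IMD2 (YHR216W, chromosome VIII, 554396 to 555967) encodes an inducible IMP dehydrogenase, the enzyme of the first step from IMP to GMP. IMD2 mRNA stood at 19.9 and 12.1 CPM in unstressed zuo1Δ, 7.94 and 7.21 after H2O2 and 11.3 and 6.45 after heat, against 395 and 410.1 CPM in unstressed wild type, 216 and 140.3 after H2O2 and 93.3 and 75.0 after heat. Every zuo1Δ library was lower than every wild-type library, in any condition. The fold was -4.16 ± 0.32, adjusted p = 1.18e-05, and by condition it was -4.65 ± 0.46 unstressed (adjusted p = 0.0005), -4.55 ± 0.45 after H2O2 (adjusted p = 0.000609) and -3.24 ± 0.43 after heat (adjusted p = 0.00803). Its ribosome footprints, from other libraries, ran from 9.80 to 13.2 CPM in zuo1Δ and 36.9 to 114 CPM in wild type (-2.81 ± 0.21, adjusted p = 1.46e-05). IMD2 has close relatives, so reads may be split between copies.

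PHO12 (YHR215W, chromosome VIII, 552099 to 553502) encodes a secreted acid phosphatase of the phosphate starvation programme and lies next to IMD2 in the annotation's gene order. PHO12 mRNA stood at 21.3 and 23.3 CPM in unstressed zuo1Δ, 19.0 and 37.2 after H2O2 and 19.8 and 29.8 after heat, against 256 and 379.8 CPM in unstressed wild type, 121 and 138 after H2O2 and 69.4 and 87.6 after heat. All 6 zuo1Δ values were again below the 6 wild-type ones. The fold was -2.55 ± 0.36, adjusted p = 0.00102, with -3.83 ± 0.44 unstressed (adjusted p = 0.00117), -2.20 ± 0.41 after H2O2 (adjusted p = 0.0463) and -1.66 ± 0.40 after heat (adjusted p = 0.0108). Footprints also fell (-2.62 ± 0.32, adjusted p = 0.000272). The near-identical PHO11 had 5.44 to 12.3 CPM in zuo1Δ, against 13.4 to 96.4 in wild type (-2.05 ± 0.33, adjusted p = 0.00154, and not past the threshold at library size alone, adjusted p = 0.0611), and reads of the pair cannot be told apart with certainty.

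IGO1 (YNL157W, chromosome XIV, 340352 to 340858) encodes an endosulfine that protects certain mRNAs from decay when cells enter quiescence. IGO1 mRNA stood at 24.7 and 49.5 CPM in unstressed zuo1Δ, 59.6 and 40.1 after H2O2 and 43.8 and 60.4 after heat, against 7.36 and 9.34 CPM in unstressed wild type, 8.83 and 8.41 after H2O2 and 11.6 and 17.4 after heat. The lowest zuo1Δ library was above the highest wild-type library. The fold was 2.18 ± 0.23, adjusted p = 0.000416, and by condition 2.15 ± 0.39 unstressed (adjusted p = 0.0465), 2.53 ± 0.40 after H2O2 (adjusted p = 0.0463) and 1.86 ± 0.39 after heat (adjusted p = 0.00842). Its footprints rose as well (0.92 ± 0.12, adjusted p = 0.000429).

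QCR6 (YFR033C, chromosome VI, 224326 to 224769) encodes a subunit of the cytochrome bc1 complex of the respiratory chain. QCR6 mRNA stood at 34.1 and 36.2 CPM in unstressed zuo1Δ, 44.4 and 29.3 after H2O2 and 33.6 and 62.9 after heat, against 6.34 and 5.05 CPM in unstressed wild type, 4.83 and 9.21 after H2O2 and 9.04 and 18.3 after heat. Here too the 6 zuo1Δ values lay above all wild-type values. The fold was 2.29 ± 0.27, adjusted p = 0.000518, with 2.63 ± 0.45 unstressed (adjusted p = 0.0457), 2.40 ± 0.45 after H2O2 (adjusted p = 0.0463) and 1.84 ± 0.45 after heat (adjusted p = 0.0107). Footprints overlapped, at 21.3 to 59.3 CPM in zuo1Δ and 16.6 to 44.4 CPM in wild type, and did not pass (0.69 ± 0.27, adjusted p = 0.0957).

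**Figure D1:**
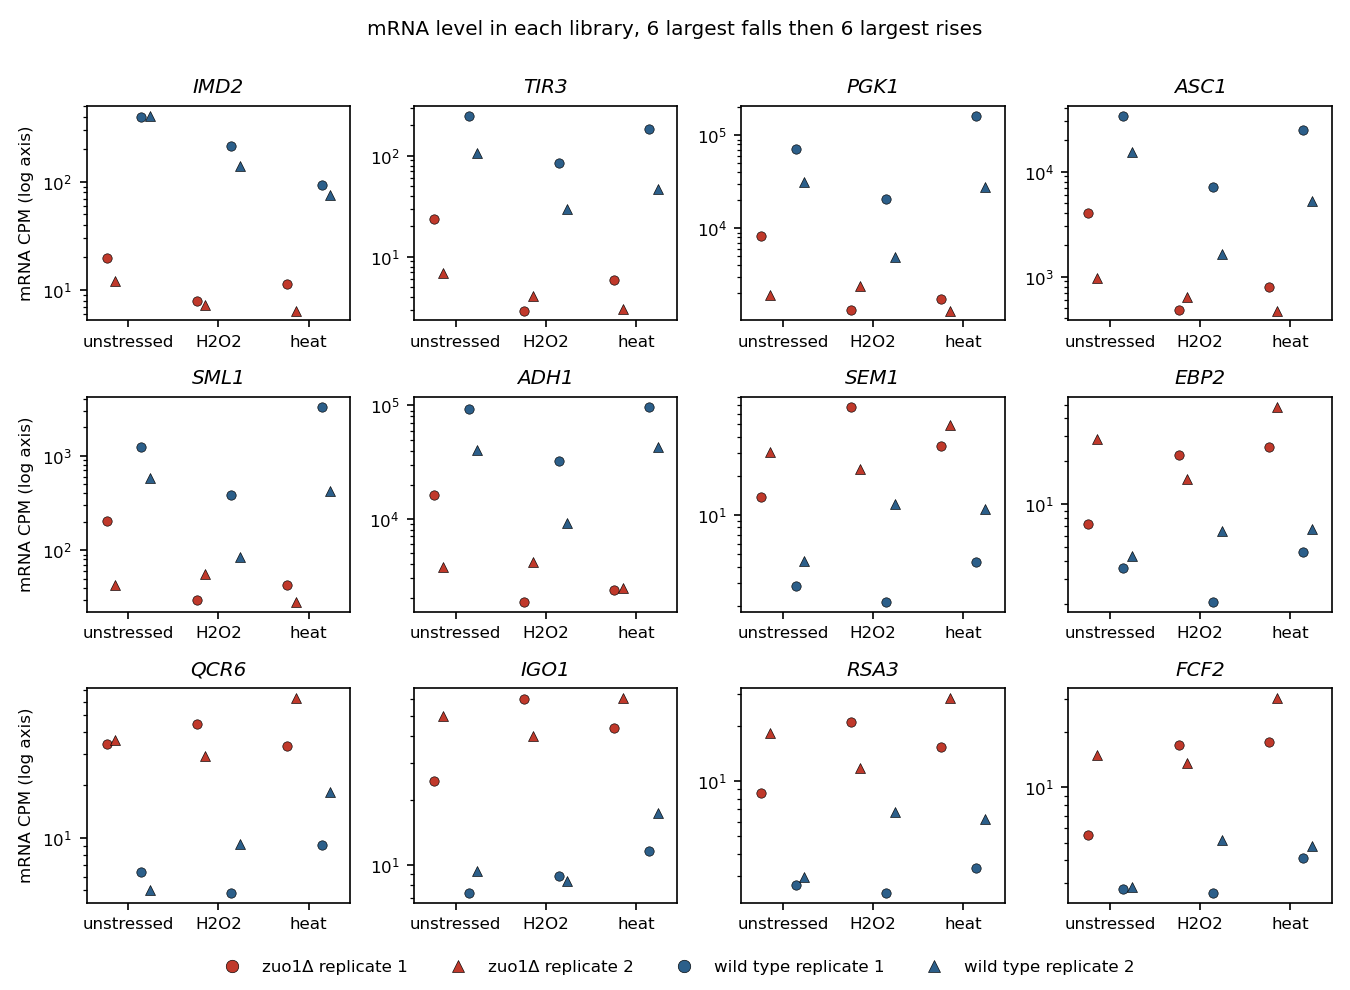
mRNA level in CPM (log axis) of the 6 largest falls and the 6 largest rises in each library, by condition, with zuo1Δ in red left of wild type in blue, circles for replicate 1 and triangles for replicate 2. In each panel and condition both zuo1Δ points lie on 1 side of both wild-type points, and IMD2 is at most 19.9 CPM in zuo1Δ libraries and at least 75.0 CPM in wild-type libraries.

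After IMD2, the 15 largest falls were led by TIR3, PGK1, ASC1, SML1 and ADH1, and 14 of the 15 had their largest difference after heat. The like share of all genes was not counted, and the heat libraries entered the ranking, so this does not set these genes apart. TIR3, a cell wall mannoprotein gene, had 23.6 and 6.87 CPM in unstressed zuo1Δ, 2.93 and 4.07 after H2O2 and 5.96 and 3.05 after heat, against 249.9 and 107 CPM in unstressed wild type, 84.5 and 29.5 after H2O2 and 183 and 46.6 after heat. Its fold was -4.08 ± 0.47, adjusted p = 0.000518, with a footprint fold of -1.71 ± 0.13, adjusted p = 1.68e-05. SML1, which encodes an inhibitor of ribonucleotide reductase, had 28.4 to 203 CPM in zuo1Δ, against 85.1 to 3297 in wild type, and these ranges overlap although the groups within each condition do not (-3.60 ± 0.74, adjusted p = 0.003). By the rule, the same holds for every other gene of the 962 whose ranges over 6 libraries overlap. DPI8 (-3.33 ± 0.59, adjusted p = 0.0017), the mannoprotein gene TIR1 (-3.32 ± 0.50, adjusted p = 0.00139) and the ornithine transaminase gene CAR2 (-3.14 ± 0.72, adjusted p = 0.00464) were also among the 15. CAR2 had differences of -2.58 unstressed, -1.80 after H2O2 and -5.27 after heat.

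The 15 largest rises, at a mean of at least 10 CPM, were smaller in fold than the falls. SEM1, whose small product is part of the proteasome lid and of a nuclear mRNA export complex, had 13.7 and 30.2 CPM in unstressed zuo1Δ, 67.8 and 22.3 after H2O2 and 34.0 and 48.9 after heat, against 2.81 and 4.40 CPM in unstressed wild type, 2.14 and 12.1 after H2O2 and 4.30 and 11 after heat. The groups did not overlap within a condition, and the lowest zuo1Δ value was just above the highest wild-type value. Its fold was 2.59 ± 0.42, adjusted p = 0.00154. YLH47, a mitochondrial inner membrane protein gene, had 24.6 to 92.4 CPM in zuo1Δ, against 8.37 to 35.9 in wild type (1.97 ± 0.32, adjusted p = 0.00154). RPC31, for a subunit of RNA polymerase III, rose (1.89 ± 0.32, adjusted p = 0.00166), as did ETT1 (1.88 ± 0.25, adjusted p = 0.000716) and ORC1, for the largest subunit of the origin recognition complex (1.79 ± 0.30, adjusted p = 0.00163). FCF2 (2.08 ± 0.28, adjusted p = 0.000845) and KRI1 (1.97 ± 0.27, adjusted p = 0.000845), both factors of ribosome assembly, also rose. Of the 15, 12 had their largest difference after heat, again without a like share counted over all genes.

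**Figure D2:**
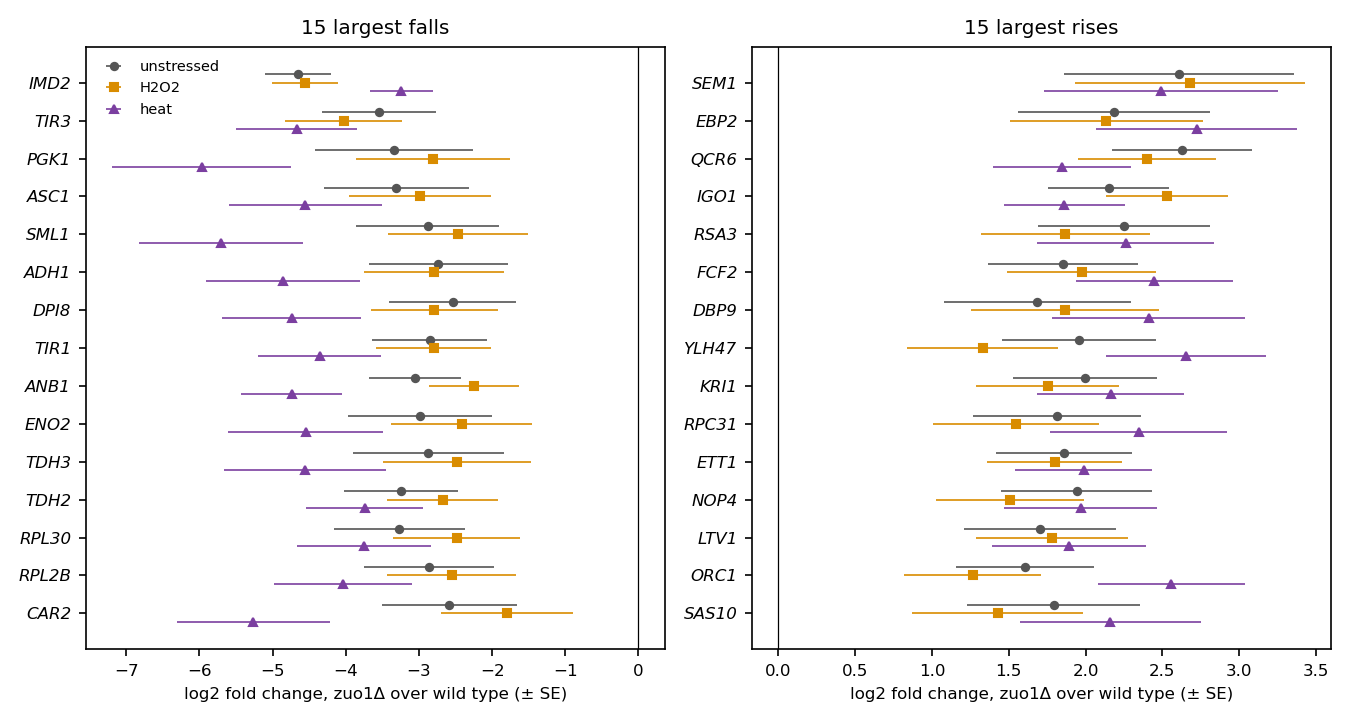
Log2 fold change in mRNA (zuo1Δ over wild type ± SE) in each condition for the 15 largest falls and the 15 largest rises. All points of the falls lie below 0 and all points of the rises above 0, and the heat value is the farthest from 0 for 14 of the falls and 12 of the rises. The like share of all genes was not counted.

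Genes of ribosome biogenesis, which make and assemble the rRNA and proteins of new ribosomes, were higher far more often than lower. Of 104 measured, 32 were higher in all 3 conditions and 3 lower (30.8% and 2.88%, against 9.86% and 9.11% of all genes). Every such list count below is to be read against those shares of all genes. Over the conditions together 55 of the 104 rose and 6 fell. Their median log2 fold change was 0.72, against 0.01 for all genes, with 0.48 unstressed, 0.84 after H2O2 and 1.07 after heat. The median became 1.96 by library size alone and 1.02 on quantile-normalised counts, above the 1.26 of all genes in the first. Without the 3 libraries that stood apart, 58 higher and 5 lower met the rule (55.8% and 4.81%), beside 24.4% and 25.9% of all genes, and every list count without them is to be read against those shares.

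NOP16, a factor of large subunit assembly, had 5.28 and 13 CPM in unstressed zuo1Δ, 14.3 and 7.85 after H2O2 and 10.2 and 26.3 after heat, against 0.608 and 2.03 CPM in unstressed wild type, 0.768 and 2.11 after H2O2 and 0.22 and 3.42 after heat. Its wild-type level was near the bottom of the measured range, and all zuo1Δ values lay above it (3.1 ± 0.54, adjusted p = 0.00166). EBP2, another large subunit factor, had 7.26 and 28.6 CPM in unstressed zuo1Δ, 22.2 and 15.1 after H2O2 and 25.1 and 48.3 after heat, against 3.57 and 4.31 CPM in unstressed wild type, 2.07 and 6.54 after H2O2 and 4.66 and 6.68 after heat. The 6 zuo1Δ values lay above the 6 of wild type (2.34 ± 0.36, adjusted p = 0.00142). RRP15, for a component of the early large subunit precursor, rose too (2.97 ± 0.52, adjusted p = 0.00166), with 0.758 to 7.0 CPM in zuo1Δ, against 0.155 to 1.07 in wild type. Others were RSA3 (2.12 ± 0.32, adjusted p = 0.00139), the RNA helicase gene DBP9 (1.98 ± 0.36, adjusted p = 0.00182), NOP4 (1.80 ± 0.28, adjusted p = 0.00142), the small subunit export factor gene LTV1 (1.79 ± 0.28, adjusted p = 0.00142) and SAS10 (1.78 ± 0.33, adjusted p = 0.00198), a member of the small subunit processome. The 3 lower ones, chosen after their values were seen, were TIF6 (-1.35), NOP56 (-1.17) and NOP58 (-0.77). In footprints 28 of the 104 rose and 0 fell, against 8.59% and 9.34% of all genes, with a median of 0.44. Every footprint count of a list below is to be read against those shares.

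Cytosolic ribosomal protein genes went the other way in mRNA. Of 135 measured, 50 were lower in all 3 conditions and 1 was higher, RPS9A (0.63, chosen after its value was seen). Large subunit genes made up 24 of the 50 (of 79 measured) and small subunit genes 26 (of 56). The list's median was -1.01, with -1.74 unstressed, -0.50 after H2O2 and -0.82 after heat. The median became 0.30 by library size alone and -0.16 on quantile-normalised counts, so its sign turned in the first while staying below the 1.26 of all genes. Without the 3 libraries 3 higher and 68 lower met the rule.

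RPL30, which encodes a large subunit protein that also regulates its own splicing, had 553 and 181 CPM in unstressed zuo1Δ, 92.0 and 129 after H2O2 and 141 and 96.7 after heat, against 4505 and 2570.0 CPM in unstressed wild type, 1051 and 189 after H2O2 and 2651 and 553 after heat. Within each condition the zuo1Δ values were the lower ones, while the wild-type replicates of H2O2 and of heat lay far apart. The fold was -3.17 ± 0.52, adjusted p = 0.00163, and the footprint fold was -0.26 ± 0.11, adjusted p = 0.101. RPL2B had 445 to 3578 CPM in zuo1Δ, against 1281 to 22270.2 in wild type (-3.14 ± 0.54, adjusted p = 0.00166), with reads uncertain between RPL2B and its near-identical copy RPL2A. The stalk protein genes RPP1B (-3.09 ± 0.57, adjusted p = 0.00204) and RPP2B (-2.74 ± 0.48, adjusted p = 0.00166) fell as well. In footprints 10 of the 135 rose and 10 fell, near the 8.59% and 9.34% of all genes, with a median of -0.10. Of the 50 lower genes 5 fell, also near the share of all genes.

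ASC1, whose product is the RACK1 homologue on the small subunit and a sensor of collided ribosomes, had 4024 and 971 CPM in unstressed zuo1Δ, 477 and 633 after H2O2 and 799.5 and 474 after heat, against 34102 and 15369.6 CPM in unstressed wild type, 7182 and 1628 after H2O2 and 24688 and 5223 after heat. The groups did not overlap within a condition, but zuo1Δ unstressed replicate 1 was above wild-type H2O2 replicate 2. The fold was -3.61 ± 0.59, adjusted p = 0.00163, and footprints did not pass (-0.21 ± 0.09, adjusted p = 0.127). The small nucleolar RNA gene SNR24 overlaps ASC1, and the strand setting of the counts is not given in the sources used here.

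Among 40 translation factor genes, 10 were lower in all 3 conditions and 1 higher, EAP1 (0.99, chosen after its value was seen), while the list's median was -0.03 (1.27 by library size alone and 0.54 on quantile-normalised counts). The lower ones were elongation factors for the most part. TEF2, 1 of 2 genes for elongation factor 1A, had 933 to 2143 CPM in zuo1Δ, against 1483 to 18545 in wild type (-2.20 ± 0.47, adjusted p = 0.00362, and adjusted p = 0.429 on quantile-normalised counts), and EFT2, for elongation factor 2, fell by a like amount (-2.42 ± 0.42, adjusted p = 0.00166). Both have near-identical copies. ANB1, for the hypoxic form of eIF5A, fell most (-3.31 ± 0.47, adjusted p = 0.00118), and the helicase gene DED1 fell too (-2.27 ± 0.48, adjusted p = 0.00344). In footprints 2 of the 40 fell and 0 rose, and of the 10 lower genes ANB1 alone did (-1.17 ± 0.29, adjusted p = 0.0164).

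The partners of Zuo1 itself were among the lower genes. SSB1, for the ribosome-bound Hsp70, had 2709.9 and 1532 CPM in unstressed zuo1Δ, 684 and 903 after H2O2 and 1077 and 685 after heat, against 12825 and 11691 CPM in unstressed wild type, 3732 and 1666 after H2O2 and 3602 and 1773 after heat. Both unstressed wild-type libraries stood highest, and in each condition zuo1Δ was lower (-1.97 ± 0.36, adjusted p = 0.00193). SSB2, its near-identical copy, gave -1.81 ± 0.38, adjusted p = 0.00344, with reads uncertain between the copies. SSZ1 had 675 and 521 CPM in unstressed zuo1Δ, 350.3 and 441 after H2O2 and 412 and 341 after heat, against 1593 and 1376 CPM in unstressed wild type, 902 and 499 after H2O2 and 748 and 509 after heat. Each condition kept the order of the genotypes. Its fold was -0.96 ± 0.26, adjusted p = 0.00953, but it turned to 0.34 at library size alone and to 0.03 on quantile-normalised counts, where SSB2 (adjusted p = 0.922) and SSB1 (adjusted p = 0.15) did not pass. Footprints of the 3 did not differ past the threshold (0.04 ± 0.13, adjusted p = 0.87 for SSB1; 0.10 ± 0.12, adjusted p = 0.558 for SSB2; 0.25 ± 0.11, adjusted p = 0.115 for SSZ1). Of the 10 chaperone genes at the ribosome, 2 were higher, FES1, for a nucleotide exchange factor of cytosolic Hsp70 (1.05 ± 0.21, adjusted p = 0.00295), and BTT1 (0.83, chosen after its value was seen), a beta subunit of the nascent polypeptide-associated complex.

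Glycolysis and fermentation genes, which turn glucose into ethanol, held the largest share of lower genes among the lists. Of 29 measured, 14 were lower in all 3 conditions and 0 higher, and 24 fell over the conditions together. The list's median was -1.56, and it was -1.94 unstressed, -1.70 after H2O2 and -2.10 after heat. The median became -0.32 by library size alone and -0.57 on quantile-normalised counts, keeping its sign. Without the 3 libraries 0 higher and 24 lower met the rule. PGK1, for phosphoglycerate kinase, had 8288 and 1933 CPM in unstressed zuo1Δ, 1313 and 2384 after H2O2 and 1759 and 1303 after heat, against 72095 and 31437 CPM in unstressed wild type, 20933 and 4951 after H2O2 and 163550.0 and 28099.6 after heat. In 5 of the 6 zuo1Δ libraries it was below every wild-type library, and the exception was unstressed replicate 1. The fold was -3.97 ± 0.76, adjusted p = 0.00233, with -3.34 unstressed, -2.81 after H2O2 and -5.97 after heat. ADH1, for the main alcohol dehydrogenase, had 16171 and 3769 CPM in unstressed zuo1Δ, 1854 and 4160.0 after H2O2 and 2382 and 2465 after heat, against 92478 and 40102 CPM in unstressed wild type, 32568 and 9122 after H2O2 and 97265 and 42885 after heat. As with PGK1, zuo1Δ unstressed replicate 1 was the highest of its group (-3.43 ± 0.62, adjusted p = 0.00191).

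The enolase gene ENO2 (-3.30 ± 0.61, adjusted p = 0.00204) and the glyceraldehyde-3-phosphate dehydrogenase genes TDH3 (-3.28 ± 0.64, adjusted p = 0.00241) and TDH2 (-3.22 ± 0.45, adjusted p = 0.00102) fell by a like amount. TDH2 with TDH3 and ENO2 with ENO1 are near-identical copies, and on quantile-normalised counts ENO2 (adjusted p = 0.0974) and TDH3 (adjusted p = 0.179) did not pass. Footprints of the list fell in 17 of 29 and rose in 0, with a median of -0.62, and 11 of the 14 lower genes fell. Footprints on PGK1 ran from 7925 to 12589.5 CPM in zuo1Δ and 15445 to 24717 CPM in wild type without overlap (-0.92 ± 0.09, adjusted p = 7.35e-05), a smaller difference than in its mRNA, although the 2 were not set against each other in 1 test.

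Amino acid biosynthesis genes were lower in 26 of 59 and higher in 0. Their median was -0.98, with -1.08, -1.0 and -0.63 in unstressed, H2O2 and heat. The median became 0.26 by library size alone and -0.28 on quantile-normalised counts, so its sign turned in the first. Without the 3 libraries 0 higher and 36 lower met the rule. HOM2, for aspartate semialdehyde dehydrogenase on the way to threonine and methionine, had 218 and 147 CPM in unstressed zuo1Δ, 98.5 and 95.4 after H2O2 and 128 and 83.5 after heat, against 703 and 581 CPM in unstressed wild type, 623 and 349.5 after H2O2 and 599.9 and 299 after heat. The highest zuo1Δ library was below the lowest wild-type library. Its fold was -2.07 ± 0.27, adjusted p = 0.000716, and footprints fell (-0.75 ± 0.08, adjusted p = 0.000144). ARG1, for argininosuccinate synthetase, had 36.0 and 19.7 CPM in unstressed zuo1Δ, 25.1 and 54.5 after H2O2 and 30.2 and 36.1 after heat, against 80.2 and 74.0 CPM in unstressed wild type, 179 and 180.3 after H2O2 and 179 and 172 after heat. The stressed wild-type libraries stood highest, and every zuo1Δ library was below every wild-type one (-2.02 ± 0.26, adjusted p = 0.000628). Its footprints fell too (-1.67 ± 0.30, adjusted p = 0.00284). The branched-chain enzyme genes ILV3 (-2.13 ± 0.38, adjusted p = 0.00184) and ILV5 (-2.03 ± 0.34, adjusted p = 0.00163) followed. In footprints 23 of the 59 fell and 1 rose, and of the 26 lower genes 13 fell.

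Purine and GMP synthesis genes were lower in 6 of 18 and higher in 0, with a median of -0.59 that turned to 0.73 by library size alone and 0.06 on quantile-normalised counts. After IMD2 came APT1, for adenine phosphoribosyltransferase (-2.15 ± 0.46, adjusted p = 0.00352), whose footprints rose (0.42 ± 0.11, adjusted p = 0.0209). IMD4, a relative of IMD2 whose gene overlaps the small nucleolar RNA gene SNR54, gave -1.93 ± 0.34, adjusted p = 0.00169, and the adenylosuccinate synthase gene ADE12 -1.68 ± 0.29, adjusted p = 0.00166. Neither passed at library size alone (adjusted p = 0.0681 for IMD4 and 0.242 for ADE12). Footprints of the list rose in 5 and fell in 2 of 18.

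The phosphate regulon, switched on by the factor Pho4 when phosphate is short, was lower in 6 of 19 (31.6%, against 9.11% of all genes) and higher in 0. Its median was -0.72, turning to 0.58 by library size alone and standing at -0.05 on quantile-normalised counts. SPL2, which encodes a regulator of low-affinity phosphate uptake, had 12.6 and 6.15 CPM in unstressed zuo1Δ, 8.45 and 13.6 after H2O2 and 9.70 and 13.9 after heat, against 126 and 65.1 CPM in unstressed wild type, 80.7 and 40.6 after H2O2 and 179 and 48.6 after heat. The 6 zuo1Δ values lay well below the 6 wild-type values (-3.03 ± 0.37, adjusted p = 0.000518). PHO84, for the high-affinity phosphate transporter, had 796 to 2053 CPM in zuo1Δ, against 2271 to 6966 in wild type (-1.91 ± 0.37, adjusted p = 0.00232), and it did not pass at library size alone (adjusted p = 0.054) or on quantile-normalised counts (adjusted p = 0.277). The antisense RNA gene YNCM0001W overlaps PHO84. All 6 of these genes also fell in footprints, where 10 of the 19 fell and 1 rose.

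Genes of nitrogen and arginine use were lower in 4 of 22 (18.2%, against 9.11% of all genes) and higher in 2 (9.09%, near the 9.86% of all genes). The list's median was -1.28 (-0.06 by library size alone and -1.07 on quantile-normalised counts). Besides CAR2 the lower ones were the GABA permease gene UGA4 (-2.07 ± 0.49, adjusted p = 0.00519), the GABA transaminase gene UGA1 (-1.23 ± 0.20, adjusted p = 0.00163, turning to 0.05 at library size alone) and GAT1, for an activator of nitrogen-repressed genes (-1.05 ± 0.21, adjusted p = 0.00303, turning to 0.22). The 2 higher ones, chosen after their values were seen, were the regulators GZF3 (0.82) and GLN3 (0.61). In the sulfur and biotin list 4 of 21 were lower and 0 higher, with a median of -0.69, which was 0.58 by library size alone. MET10, for a sulfite reductase subunit, had 141 and 69.9 CPM in unstressed zuo1Δ, 67.4 and 57.7 after H2O2 and 71.2 and 39.4 after heat, against 344 and 306 CPM in unstressed wild type, 259.9 and 165 after H2O2 and 254 and 159 after heat. Its values did not overlap between the genotypes (-1.76 ± 0.26, adjusted p = 0.00131), its footprints fell (-1.24 ± 0.14, adjusted p = 0.000193), and it did not pass at library size alone (adjusted p = 0.169). CYS3, STR3 and MET5 also fell, at -1.71, -1.21 and -0.90, of which STR3 turned to 0.05 and MET5 to 0.31 at library size alone.

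Iron regulon genes were lower in 6 of 25 (24%, against 9.11% of all genes) and higher in 0. The list's median was -0.99, 0.25 by library size alone and -0.84 on quantile-normalised counts. ARN1, for a siderophore transporter, had 186 and 57.7 CPM in unstressed zuo1Δ, 92.0 and 51.7 after H2O2 and 89.1 and 30.3 after heat, against 434 and 218 CPM in unstressed wild type, 491 and 299 after H2O2 and 439 and 394 after heat. No zuo1Δ library reached the lowest wild-type value (-2.23 ± 0.40, adjusted p = 0.00181), and footprints fell (-1.29 ± 0.28, adjusted p = 0.00851). The others named by rule were the siderophore-retaining mannoprotein gene FIT3 (-2.20 ± 0.65, adjusted p = 0.0151), the multicopper oxidase gene FET3 (-1.37 ± 0.36, adjusted p = 0.0088) and TIS11 (-1.21 ± 0.27, adjusted p = 0.00406), for a factor that directs decay of mRNAs when iron is short, which turned to 0.13 at library size alone. Footprints of the list fell in 11 and rose in 1 of 25.

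At the cell surface, 9 of 30 cell wall genes were lower (30%, against 9.11% of all genes) and 0 higher. The list's median of -0.63 turned to 0.65 by library size alone and 0.22 on quantile-normalised counts. The wall proteins BGL2 (-3.03 ± 0.61, adjusted p = 0.00283), CWP1 (-2.82 ± 0.65, adjusted p = 0.00495) and ECM33 (-2.74 ± 0.56, adjusted p = 0.00299) followed TIR1. In footprints 8 of the 30 rose and 4 fell, and the 4 that fell were among the 9 lower genes. Drug pump genes under Pdr1, a factor that Zuo1 and Ssz1 are known to activate outside the ribosome, were lower in 3 of 13 and higher in 0. The lower share was 23.1%, against 9.11% of all genes, and the list's median was -0.49 (0.79 by library size alone). PDR15, for an ABC transporter, had 188 and 83.8 CPM in unstressed zuo1Δ, 94.2 and 121 after H2O2 and 106 and 75.8 after heat, against 989 and 517 CPM in unstressed wild type, 991 and 674 after H2O2 and 414 and 323 after heat. Its highest zuo1Δ value was below its lowest wild-type value (-2.48 ± 0.31, adjusted p = 0.000518). Footprints on PDR15 fell by a like amount (-2.52 ± 0.36, adjusted p = 0.000659). RSB1, linked to export of sphingoid bases, fell with it (-2.05 ± 0.26, adjusted p = 0.000628), as did the pump gene PDR5 (-1.57 ± 0.30, adjusted p = 0.00229), which did not pass at library size alone (adjusted p = 0.323) or on quantile-normalised counts (adjusted p = 0.82). All 3 also fell in footprints, where 6 of the 13 fell and 1 rose. Of 11 hexose transporter genes 2 were lower (18.2%, against 9.11% of all genes) and 1 higher (9.09%, near the 9.86% of all genes). The lower ones were HXT1 (-1.79 ± 0.38, adjusted p = 0.00348) and HXT3 (-1.61 ± 0.32, adjusted p = 0.00291). At library size alone HXT1 (adjusted p = 0.148) and HXT3 (adjusted p = 0.26) did not pass. The higher one was STD1, for a regulator of glucose-induced genes (1.56 ± 0.27, adjusted p = 0.00166).

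Protein folding genes outside the ribosome gave small counts in both directions in mRNA. Of 32 Hsf1 chaperone genes 4 were lower (12.5%, against 9.11% of all genes) and 2 higher (6.25%, against 9.86%). The list's median of -0.27 turned to 0.96 by library size alone and to 0.18 on quantile-normalised counts. The cytosolic Hsp70 genes SSA2 (-1.98 ± 0.41, adjusted p = 0.0032) and SSA1 (-1.23 ± 0.38, adjusted p = 0.0193, turning to 0.06 at library size alone) and the mitochondrial chaperone genes SSC1 (-1.75 ± 0.33, adjusted p = 0.00232) and HSP60 (-1.64 ± 0.35, adjusted p = 0.00362) were lower, and all 4 fell in footprints. Footprints of the whole list fell in 16 and rose in 1 of 32, with a median of -0.52. Of 28 genes of folding in the endoplasmic reticulum 4 were lower (14.3%, against 9.11% of all genes) and 1 higher (3.57%, against 9.86%), SEC72 (1.09 ± 0.25, adjusted p = 0.00464), but by library size alone 17 were higher and 0 lower, with a median of 1.17. KAR2, for the Hsp70 of that compartment, had 724 and 608 CPM in unstressed zuo1Δ, 483 and 444 after H2O2 and 493 and 264 after heat, against 2241 and 2536 CPM in unstressed wild type, 1299 and 893 after H2O2 and 1632 and 1276 after heat. The highest zuo1Δ library was below the lowest wild-type library (-1.68 ± 0.27, adjusted p = 0.00158), and footprints fell (-1.43 ± 0.23, adjusted p = 0.0018). SEC61, for the channel of the translocon (-2.01 ± 0.43, adjusted p = 0.00368), and PDI1, for protein disulfide isomerase (-1.44 ± 0.31, adjusted p = 0.00386, turning to 0.18 on quantile-normalised counts), were also lower. KAR2 (adjusted p = 0.205) did not pass at library size alone. Footprints of this list fell in 9 and rose in 2 of 28, with a median of -0.22.

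Of 43 proteasome genes 3 were higher (6.98%) and 4 lower (9.3%), near the 9.86% and 9.11% of all genes, and by library size alone 3 were higher and 0 lower. Besides SEM1, RPN4, for the transcription factor of proteasome genes, had 41.1 to 108 CPM in zuo1Δ, against 10.9 to 33.7 in wild type (1.59 ± 0.31, adjusted p = 0.00236), and its footprints rose (0.84 ± 0.21, adjusted p = 0.0185). ECM29 (-1.33 ± 0.31, adjusted p = 0.00493) and DSK2 (-1.12 ± 0.28, adjusted p = 0.00722, turning to 0.17 at library size alone) were lower. In footprints RPN4 was the only 1 of the 43 that rose, while 11 fell, with a median of -0.29. Antioxidant genes gave 1 higher, the glutaredoxin gene GRX1 (1.03 ± 0.22, adjusted p = 0.00341), and 2 lower, GTT1 (-1.80 ± 0.31, adjusted p = 0.00166) and HYR1 (-1.62 ± 0.31, adjusted p = 0.00231), of 33. General stress genes gave 1 in each direction of 40, IGO1 and UGP1 (-1.48 ± 0.29, adjusted p = 0.00268), and calcineurin and Crz1 targets 1 in each of 21, GYP7 (0.69 ± 0.16, adjusted p = 0.00501) and CMP2 (-1.01 ± 0.23, adjusted p = 0.00493, turning to 0.28 at library size alone). The antioxidant, general stress and calcineurin lists lay below the 9.86% and 9.11% of all genes in both directions.

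mRNA decay and ribosome quality control genes were higher in 6 of 50 and lower in 2, the first near the 9.86% of all genes, with a median of 0.31 (1.58 by library size alone). RQT4, for a subunit of the complex that splits collided ribosomes, had 2.64 to 8.72 CPM in zuo1Δ, against 0.724 to 1.98 in wild type (1.85 ± 0.32, adjusted p = 0.00166). LSM4, of the Lsm ring that promotes decapping, gave 1.78 ± 0.38, adjusted p = 0.00347 and rose in footprints (0.40 ± 0.10, adjusted p = 0.0203), and NOT3, of the deadenylase complex, gave 1.06 ± 0.24, adjusted p = 0.0043. Mitochondrial ribosomal protein genes were higher in 8 of 73 (11%, near the 9.86% of all genes) and lower in 1, RSM7 (-1.39 ± 0.34, adjusted p = 0.00646), and by library size alone 39 were higher and 0 lower. RSM18 (1.74 ± 0.27, adjusted p = 0.00142), RSM28 (1.60 ± 0.26, adjusted p = 0.00154) and SWS2 (1.18 ± 0.19, adjusted p = 0.00154) were the largest rises, with footprints that did not pass. Respiration genes gave 4 higher of 46 (8.7%, below the 9.86% of all genes) and 0 lower, with a median of 0.00 (1.22 by library size alone and -0.08 on quantile-normalised counts), and without the 3 libraries 10 higher and 11 lower met the rule (21.7% and 23.9%, near the 24.4% and 25.9% of all genes). ATP7, for a subunit of ATP synthase, had 63.8 and 111 CPM in unstressed zuo1Δ, 113 and 108 after H2O2 and 109 and 109 after heat, against 27.3 and 56.1 CPM in unstressed wild type, 26.9 and 36.7 after H2O2 and 21.5 and 27.0 after heat. The lowest zuo1Δ library was above the highest wild-type library (1.68 ± 0.26, adjusted p = 0.00142), and footprints rose (0.64 ± 0.10, adjusted p = 0.00184). ATP19 (1.30 ± 0.28, adjusted p = 0.00362) and QCR7 (0.74 ± 0.18, adjusted p = 0.00644) were the others. In footprints 26 of the 46 rose and 0 fell.

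Mating genes were higher in 4 of 29 (13.8%, against 9.86% of all genes) and lower in 2 (6.9%, against 9.11%), and by library size alone 19 were higher and 0 lower. GPA1, for the G protein alpha subunit of the pheromone pathway, had 49.1 to 112 CPM in zuo1Δ, against 20.6 to 61.8 in wild type (1.31 ± 0.25, adjusted p = 0.00237), and the kinase gene STE11 gave 0.87 ± 0.20, adjusted p = 0.00493. BAR1, for the protease that degrades alpha factor, was lower (-1.21 ± 0.27, adjusted p = 0.00418, turning to 0.13 at library size alone), as was FIG2 (-0.80 ± 0.23, adjusted p = 0.0125, turning to 0.47). Histone genes were lower in 4 of 11 and higher in 0, namely HTA1 (-1.59 ± 0.38, adjusted p = 0.00533), HTA2 (-1.57 ± 0.31, adjusted p = 0.00278), the H2A variant gene HTZ1 (-1.30 ± 0.26, adjusted p = 0.00297) and HHT1 (-1.18 ± 0.30, adjusted p = 0.00724, turning to 0.12 at library size alone), and the first 3 did not pass at library size alone (adjusted p of 0.396, 0.554 and 0.889 in that order). Their footprints did not pass, and HTA1 and HTA2 are near-identical copies.

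**Figure D3:**
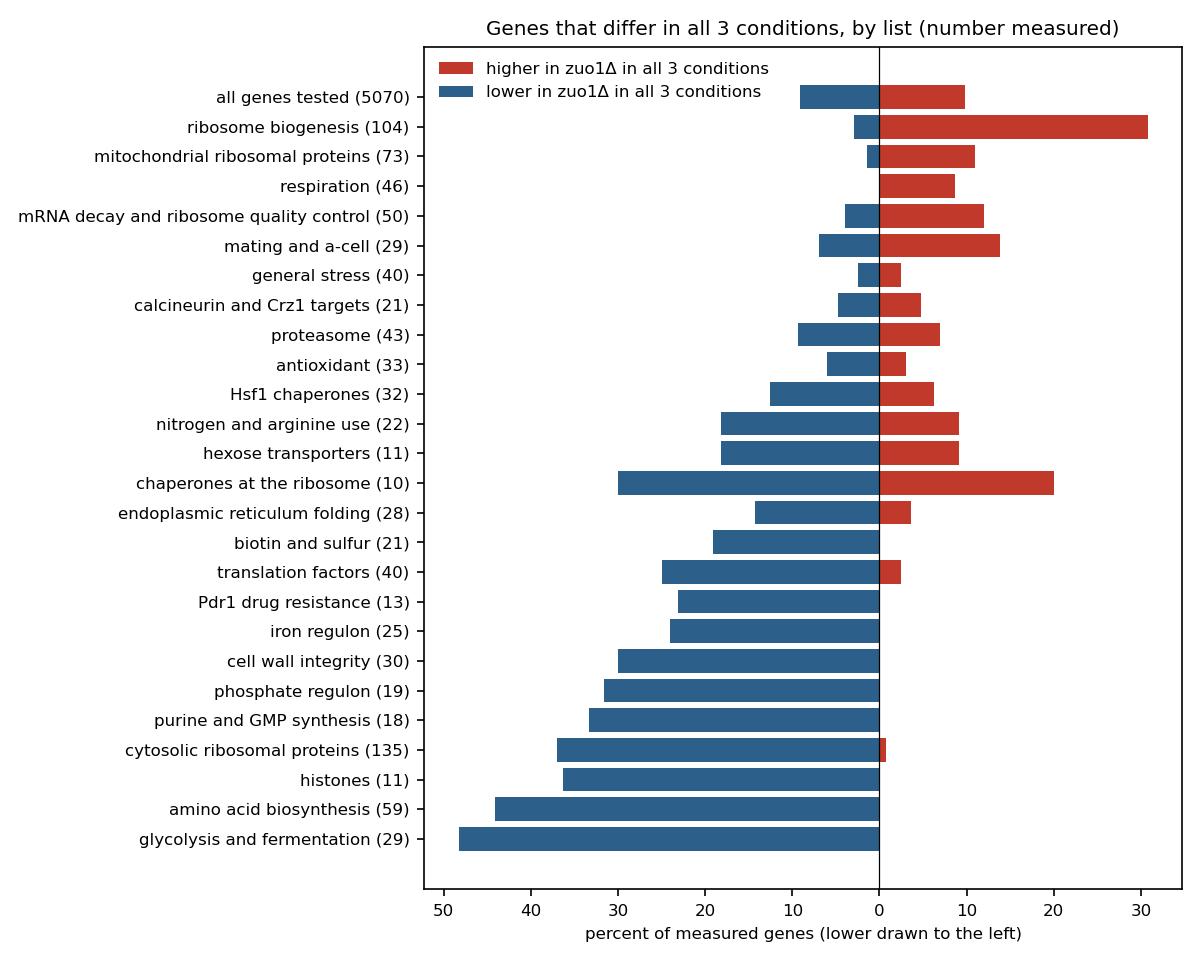
Share of the measured genes of each list, in percent, that were higher (red, to the right) or lower (blue, to the left) in zuo1Δ in all 3 conditions, with the number measured in parentheses and all 5070 genes in the top bar. Ribosome biogenesis reaches 32 of 104 to the right, and glycolysis and fermentation 14 of 29 to the left. By library size alone, which lifts the median of all genes to 1.26, the medians of most lists drawn to the left turn above 0, among them cytosolic ribosomal proteins (0.30) and amino acid biosynthesis (0.26).

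Without the 3 libraries that stood apart, the rule was met by 8 higher and 10 lower translation factor genes, 2 higher and 8 lower of the phosphate regulon, 1 higher and 8 lower of purine synthesis and 1 higher and 17 lower of the iron regulon. For nitrogen use these counts were 2 higher and 17 lower, for sulfur 0 higher and 10 lower, for the cell wall 3 higher and 14 lower, for Pdr1 targets 2 higher and 7 lower and for chaperones at the ribosome 3 higher and 4 lower. They were 5 higher and 7 lower for Hsf1 chaperones, 4 higher and 8 lower for folding in the endoplasmic reticulum, 7 higher and 10 lower for the proteasome and 1 higher and 5 lower for hexose transporters. Antioxidant genes gave 5 higher and 12 lower, general stress genes 3 higher and 13 lower and calcineurin targets 3 higher and 6 lower. The counts were 16 higher and 3 lower for mRNA decay, 19 higher and 9 lower for mitochondrial ribosomal proteins, 6 higher and 5 lower for mating and 1 higher and 3 lower for histones, beside 1236 higher and 1311 lower of all 5070 genes. The named genes were chosen from the same counts, and 1 zuo1Δ library was left in each condition, so no weight is placed on their calls in this fit.

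Some calls among these genes changed with the scaling, the fit or 1 library. At library size alone SSA2 (adjusted p = 0.0561), UGA4 (adjusted p = 0.0673), FIT3 (adjusted p = 0.083), SSB2 (adjusted p = 0.129) and GTT1 (adjusted p = 0.146) did not pass. Nor did SSC1 (adjusted p = 0.182), HSP60 (adjusted p = 0.202), CYS3 (adjusted p = 0.232), HYR1 (adjusted p = 0.346), UGP1 (adjusted p = 0.591), PDI1 (adjusted p = 0.607), FET3 (adjusted p = 0.83), ECM29 (adjusted p = 0.836) and RSM7 (adjusted p = 0.904). SSA1 also missed the threshold without wild-type H2O2 replicate 1 (adjusted p = 0.0503). MET5 missed it without any 1 of 5 libraries, namely wild-type H2O2 replicate 1 and, of zuo1Δ, both unstressed replicates, H2O2 replicate 1 and heat replicate 2 (adjusted p of 0.0612 to 0.12). HTA1 missed it with no condition term (adjusted p = 0.0515). On quantile-normalised counts, beside the genes named above for that setting, FIG2 (adjusted p = 0.064), ECM29 (adjusted p = 0.0808), CYS3 (adjusted p = 0.091), DSK2 (adjusted p = 0.114), BAR1 (adjusted p = 0.123) and HXT3 (adjusted p = 0.127) did not pass. Nor did SSC1 (adjusted p = 0.198), MET5 (adjusted p = 0.208), SSA2 (adjusted p = 0.377), HSP60 (adjusted p = 0.537), FET3 (adjusted p = 0.615) and SSA1 (adjusted p = 0.875). Counts were also summed over conditions by genotype and replicate number, which allows for shared cultures only if equal numbers mark 1 culture. In that fit 1731 of all 5070 genes passed. The named genes were chosen from the same counts, which nearly fixes their result, so it lends no support. Of the 107 named genes that met the rule, 99 passed. The 8 that did not were STR3 (adjusted p = 0.0521), ECM29 (adjusted p = 0.0536), RSM7 (adjusted p = 0.0578), FIG2 (adjusted p = 0.071), MET5 (adjusted p = 0.0726), DSK2 (adjusted p = 0.118), SSA1 (adjusted p = 0.133) and FIT3 (adjusted p = 0.191).

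What the 962 genes share beyond these lists was read from values that the rule used, if at all, only to require a count above 0. Footprint density in wild type, the footprint CPM per kilobase of annotated gene, had a median of 28.8 in the 500 higher genes, 187 in the 462 lower genes and 41.4 in all genes. When genes were cut into deciles by this density, 34.8% of the top decile were lower in all 3 conditions and 0.988% higher. In the third decile these shares were 3.96% and 18.4%. The median log2 fold change was 0.35 in the third decile and -0.91 in the top one, and across 5054 genes the Spearman correlation was -0.25. Genes share libraries and their scaling, so this is a description. It goes with the composition of the libraries, since the SD of log2 level across genes was 1.73 to 2.18 in zuo1Δ and 2.11 to 2.57 in wild type. The part of composition in these differences was not tested.

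The difference after heat ran with gene length. The median difference after heat was -0.70 in the shortest decile of genes and 0.75 in the longest, against -0.04 and -0.11 unstressed and -0.05 and 0.14 after H2O2. Set against each gene's mean over the libraries, the longest quintile of genes less the shortest quintile stood at 0.30 and 0.38 in the zuo1Δ heat libraries and at -0.89 and -0.71 in the wild-type ones. The part of length in the heat differences was not tested. With a length correction per library 1007 genes met the rule, 805 of them among the 962. The median lengths of the higher and lower genes, 1221 and 1215 bases, were close to the 1282.5 bases of all genes. By chromosome the median log2 fold change ran from -0.20 (III) to 0.13 (IV).

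**Figure D4:**
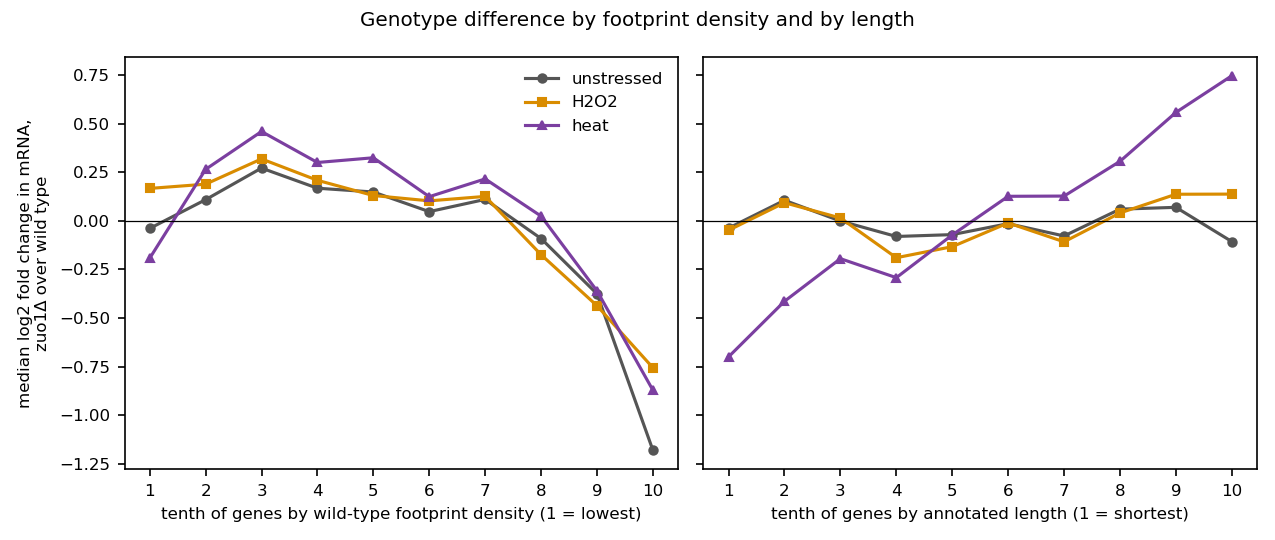
Median log2 fold change in mRNA (zuo1Δ over wild type) in deciles of genes ordered by wild-type footprint density (left) and by annotated length (right), with a line for each condition. On the left all 3 lines end between -1.18 and -0.76 in the highest decile. On the right the heat line runs from -0.70 in the shortest to 0.75 in the longest decile while the H2O2 line stays between -0.19 and 0.14.

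Footprints measured the genotype difference in libraries that the rule used only to require a count above 0. Over the 3 conditions 435 genes rose (8.59% of 5064 tested) and 473 fell (9.34%), a split that became 1197 and 211 by library size alone. Of the 500 genes higher in mRNA, 102 rose in footprints (20.4%) and 7 fell (1.4%). Of 461 lower genes tested, 140 fell (30.4%) and 7 rose (1.52%). Without overlap in any condition, 64 of the 500 were higher in footprints, against 5.85% of all genes, and 108 of the 461 were lower, against 6.44%. In sign alone, 394 of the 500 and 363 of the 461 had a footprint difference in the direction of the mRNA. The like share of all genes was not counted, so these counts do not set the members apart from other genes. The sizes were smaller, though the 2 readouts were not tested against each other, with a median footprint difference of 0.23 for the higher genes and -0.25 for the lower ones. The Spearman correlation of the 2 differences was 0.33 over 5064 genes, which share gene models and strains and are not replicates.

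Among the 15 largest falls, footprints of 12 fell, and those of ASC1, RPL30 and RPL2B did not pass. Footprints on RPL2B ran from 1076 to 1951 CPM in zuo1Δ and 1030.2 to 1909 CPM in wild type (0.04 ± 0.08, adjusted p = 0.762). Among the 15 largest rises, footprints of 3 rose: IGO1, DBP9 (0.61 ± 0.13, adjusted p = 0.00763) and ETT1 (0.43 ± 0.12, adjusted p = 0.0274). YLH47 went the other way, with footprints at 44.4 to 131 CPM in zuo1Δ and 86.8 to 159 CPM in wild type that fell (-0.86 ± 0.18, adjusted p = 0.00658) while its mRNA rose. TDH2 (-1.05 ± 0.14, adjusted p = 0.000375), TIR1 (-1.11 ± 0.23, adjusted p = 0.00627) and CAR2 (-0.76 ± 0.17, adjusted p = 0.00899) were lower in both.

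**Figure D5:**
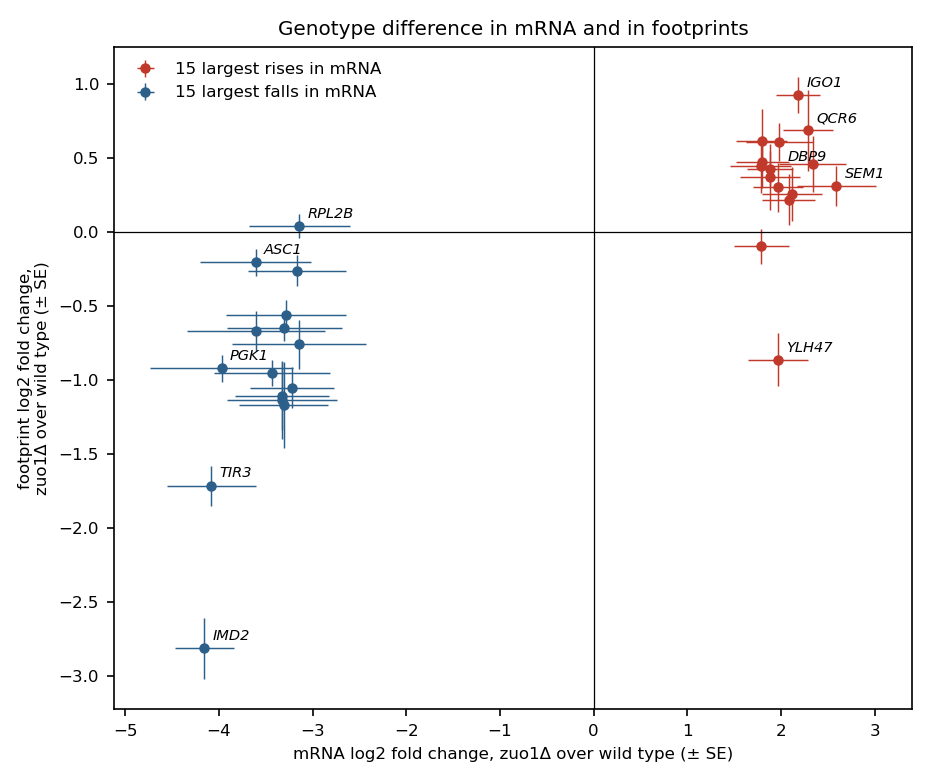
Footprint against mRNA log2 fold change (zuo1Δ over wild type ± SE, each over 3 conditions) for the 15 largest rises (red) and 15 largest falls (blue) in mRNA. IMD2 lies lowest in both readouts (-4.16 in mRNA and -2.81 in footprints), RPL2B and ASC1 are near 0 in footprints, and YLH47 is the rise whose footprints fell.

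The 6 genes nearest to ZUO1 on chromosome VII were looked at as well. ERV29 fell (-1.83 ± 0.41, adjusted p = 0.00453) but its groups overlapped in at least 1 condition, and it did not pass at library size alone (adjusted p = 0.119). BIO2 on the other side did not pass (-0.69 ± 0.30, adjusted p = 0.0733, turning to 0.58 at library size alone), with differences of -1.74 unstressed, -0.25 after H2O2 and -0.10 after heat, while its footprints fell (-1.16 ± 0.20, adjusted p = 0.00231). IMA1 fell without meeting the rule (-0.62 ± 0.22, adjusted p = 0.0356), and so did its footprints (-1.03, adjusted p = 0.0204). UPA1 (-0.56 ± 0.39, adjusted p = 0.252) and MAL13 (-0.16 ± 0.18, adjusted p = 0.508) did not pass, while footprints on UPA1 rose (0.63, adjusted p = 0.00399). BGL2 was the only 1 of the 6 that met the rule, which 19% of all genes met.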

How the data were processed

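The deposited table gives raw read counts per gene for 12 mRNA and 12 footprint libraries, not normalised by the authors. Per the submitters' processing notes, cutadapt, Bowtie2, HISAT2, SAMtools and the build R64 were used. Which counter, annotation and strand option were applied is not given in the sources used here, and near-identical, overlapping and antisense genes cannot be told apart. No molecular identifiers are named, so reads need not be independent molecules. Symbols, positions and lengths came from the RefSeq R64 gene table, which matched 5198 of 5211 IDs.

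The tests used edgeR 4.0.16 in R 4.3.3 (two-sided quasi-likelihood F test, condition plus genotype, TMM factors, filterByExpr with minimum count 10 and minimum total 15, which kept all 5070 genes in mRNA and 5064 in footprints). The biological coefficient of variation was 0.35 in mRNA and 0.2 in footprints. The SE of a log2 fold change is its size divided by the root of the F statistic. Adjusted p-values are Benjamini-Hochberg over all genes tested, at a threshold of 0.05. The fit was also run on simulated counts of independent libraries. Those counts held no shared cultures and no libraries that stand apart, so they do not vouch for the p-values here. Differences by condition, and the test of unequal differences, came from fits with 6 group means.

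The 962 genes, the gene lists and the rules were chosen with earlier results of these data known. Named are the 15 largest rises and falls at a mean of 10 CPM or more, up to 4 members of each list with the largest change, the 4 genes passing in each condition, SSZ1, SSB1, SSB2, the neighbours of ZUO1 and genes at the edge of the threshold. Other genes were named after their values were seen. Alternatives were RLE factors, library size alone, no filter, DESeq2 1.42.0, limma 3.58.1 on quantile-normalised counts, length offsets, no condition term, a replicate block, keeping genes at 0 in 1 genotype, and leaving out libraries. Leaving out 3 libraries together, and counts summed over conditions, were added after the data were seen.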

Additional observations from a re-analysis of the deposited data

How the results depend on the processing

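The count of genes that met the rule, 962, was within 1.5 times of itself under RLE factors (938), no filter (962), DESeq2 (973), the replicate block (941), length offsets (1007), no condition term (928), genes at 0 in 1 genotype kept (1102) and the libraries labelled zuo1Δ H2O2 replicate 2 and heat replicate 1 left out (1340). It was 2348 by library size alone and 641 on quantile-normalised counts (345 higher and 296 lower), of which 541 and 506 were among the 962. It was 2547 without those libraries and zuo1Δ unstressed replicate 1, and 862 to 1950 with single libraries left out (1950 when wild-type unstressed replicate 2 was the one left out and 1916 for zuo1Δ unstressed replicate 1). The count over conditions together, 2290, was 3677 by library size alone and 1653 to 2795 with single libraries left out. Summed over conditions, 2 libraries against 2, it was 1731, and 8 of 107 named genes lost their call. The sign was kept by 4652 of all 5070 genes. All 962 kept it too, but they were chosen from the same counts by a rule that nearly fixes this.

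The count passing in each condition, 4, was 1 by library size alone, 1 with length offsets, 0 without the pair of libraries named above, 0 in separate fits, 164 by DESeq2, 161 with genes at 0 kept, and 0 to 153 with single libraries left out. Unequal differences between conditions, 0, numbered 27 by DESeq2 and 0 to 1 with single libraries left out. The footprint count, 908, was 1408 by library size alone, 329 with no condition term, and 509 to 1075 with single libraries left out (509 without wild-type H2O2 replicate 2, 538 without wild-type H2O2 replicate 1, 564 without wild-type heat replicate 1, 593 for zuo1Δ unstressed replicate 2 and 594 for zuo1Δ H2O2 replicate 2).

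Replicate numbers went with a shared deviation in the unstressed mRNA samples, but not in those after H2O2 or heat. Deviations of same-numbered zuo1Δ and wild-type libraries correlated at 0.783 unstressed, -0.311 after H2O2 and 0.095 after heat. With the replicate block 137 genes passed in each condition and 113 had unequal differences. The cause of these shifts was not tested.

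By library size alone the sign turned for SSA1 (0.0551), HHT1 (0.12), FIG2 (0.47), VFA1 (0.34), GAT1 (0.22), EPL1 (0.66), STR3 (0.0506), UGA1 (0.0455), BIO2 (0.58), SSZ1 (0.34), BAR1 (0.13), KRE9 (0.56), MET5 (0.31), STE3 (0.39), TIS11 (0.13), CMP2 (0.28), DSK2 (0.17) and HIS3 (0.70). On quantile-normalised counts it turned for PDI1 (0.18) and SSZ1 (0.031). Over 115 named genes and all settings, 2516 values kept direction and side of the threshold, 79 lost the call and 30 gained it. All 15 largest rises kept their call under each setting run, and all 15 largest falls did except on quantile-normalised counts (13). The named genes were chosen from these same counts, which nearly fixes such a result, so kept calls lend no support. For the rises, library size alone also lifts the median of all genes to 1.26.

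Each group had 2 mRNA libraries, the smallest with 7810893 counts. Values are relative to the other genes of a library, so changes in total mRNA were not measured.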
